A study of Mus musculus with 18 samples.

Results

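Glucuronosyltransferases (Ugt) and sulfotransferases (Sult) are the conjugating enzymes described here, as mRNA levels in mouse liver. The genes were taken by symbol, all names that begin with Ugt or Sult followed by a digit, and were kept where the mean log2 value over the 18 libraries was at least 2. Of 39 such symbols in the table, 26 were kept: 8 of the UGT1A family, 8 of the UGT2 family, 2 of the UGT3 family, 5 of the SULT1 family, 1 of the SULT2 family and 2 other sulfotransferases. The rule uses levels over all libraries and no difference between groups.

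The mice were male C57BL/6, 6 to 7 weeks old at the start, and each library is the liver of 1 mouse after an overnight fast. The HFD+AC261066 group (n = 6) ate a high-fat diet with 60% of kcal from fat for 4 months and drank AC261066, an agonist of retinoic acid receptor β2, at 3 mg per 100 ml of water during the last 2 months. The HFD group (n = 6) ate the same diet, and the chow group (n = 6) ate a diet with 13% of kcal from fat. All groups, HFD and chow included, drank water with 0.2% DMSO in the last 2 months. Diet-fed mice of one strain and sex model fatty liver and obesity together, so an effect on the liver and one on body weight cannot be told apart here.

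Glucuronosyltransferases sit in the membrane of the endoplasmic reticulum and transfer glucuronic acid from UDP-glucuronic acid to bilirubin, steroids, bile acids, retinoids and drugs. Cytosolic sulfotransferases transfer sulfate from PAPS (3'-phosphoadenosine 5'-phosphosulfate) to phenols, steroids, thyroid hormones and amines. Both make their substrates more soluble in water and ready for export into bile or blood, and the liver is a main site of both.

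Members of one family can be hard to tell apart by short reads. Each UGT1A gene of the mouse has its own promoter and first exon on chromosome 1 and splices it to a common set of exons. In the annotation of NCBIM37, the mm9 assembly the authors aligned to, all 8 UGT1A members share 4 exonic stretches of 1311 bases in all, the first of which begins at position 90111619. Of the windows of 51 bases, the read length, in the longest transcript of each UGT1A gene, between 58.1% in *Ugt1a1* and 92.1% in *Ugt1a6b* also occur in another gene. Outside that locus the share is 40.6% for *Ugt2b5*, 36.8% for *Ugt2b38*, 17.7% for *Ugt2b37* and at most 8.48% for the other members examined, with 0% for 5 SULT1 genes. How the counting treated reads from such stretches is not given in the sources used here, so values of UGT1A genes and of *Ugt2b5* and *Ugt2b38* carry an uncertainty between neighbours that the spread between mice does not show.

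The bases before the start of the genes on which the results turn are printed here from RefSeq's promoter table of GRCm38.p6, where 23 of the 26 genes had an entry. Each stretch also occurs base for base in NCBIM37, at the place named here. The first pair is shown because the promoters of *Ugt1a10* (180 bases, chr1:89951806-89951985, plus strand) and *Ugt1a9* (200 bases, chr1:89967154-89967353, plus strand) are alike, and HFD livers had less of both mRNAs than chow livers. Over the 250 bases before each start, they align with 81.8% identity over 231 columns, whereas no other pair of UGT1A promoters aligns over more than 16 columns. Capitals mark the longest run that both hold, of 32 bases, which begins 32 bases before the start of *Ugt1a10* and 52 bases before that of *Ugt1a9*. Whether the likeness of the promoters has a part in the levels of the mRNAs was not tested.
Ugt1a10: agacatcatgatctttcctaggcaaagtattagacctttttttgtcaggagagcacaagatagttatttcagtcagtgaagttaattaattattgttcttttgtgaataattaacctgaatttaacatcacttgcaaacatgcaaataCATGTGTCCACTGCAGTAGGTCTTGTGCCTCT
Ugt1a9: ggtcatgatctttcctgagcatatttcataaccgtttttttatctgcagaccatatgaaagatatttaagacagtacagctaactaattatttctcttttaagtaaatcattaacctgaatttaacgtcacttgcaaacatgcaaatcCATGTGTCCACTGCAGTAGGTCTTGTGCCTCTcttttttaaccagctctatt

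*Ugt1a5* (chr1:90062437-90062586) and *Ugt1a1* (chr1:90108384-90108533), both on the plus strand, are shown as the UGT1A genes with the widest spread between mice and with the only higher call in HFD livers. Capitals in the 150 bases before *Ugt1a5* mark GCGTG, the core of the element bound by the aryl hydrocarbon receptor, 49 bases before the start. In the 300-base windows of the table, 32.5% of 27025 promoters and 3 of 23 members hold GCGTG on either strand.
Ugt1a5: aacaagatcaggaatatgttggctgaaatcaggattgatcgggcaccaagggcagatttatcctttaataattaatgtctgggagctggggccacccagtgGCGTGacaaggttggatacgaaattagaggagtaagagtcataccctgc
Ugt1a1: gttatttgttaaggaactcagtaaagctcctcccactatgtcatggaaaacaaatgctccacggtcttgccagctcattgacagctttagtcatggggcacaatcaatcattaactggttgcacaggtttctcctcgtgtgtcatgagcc

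The promoters of *Ugt2b5* (chr5:87569366-87569465), *Ugt2b38* (chr5:87853229-87853328), *Ugt2b36* (chr5:87521581-87521680) and *Ugt2b37* (chr5:87683814-87683913), all on the minus strand, are shown as the most alike UGT2B promoters, from genes of which some changed and others did not pass the test. Over the last 100 bases they are 71.0% to 84.0% identical, and *Ugt2b35*, at most 70.0% identical to any of them, is not printed. The most alike pair is *Ugt2b37* with *Ugt2b38*, at 84.0% identity, followed by *Ugt2b38* with *Ugt2b5* at 82.0%. Capitals mark AGGTCA, a core motif of nuclear receptors, whose first base lies 22 bases before the start of *Ugt2b5*, 25 before *Ugt2b38* and *Ugt2b36*, and 39 before *Ugt2b37*. AGGTCA occurs on either strand in 16.0% of the 27025 promoters and, counting the first entry of each gene, in 8 of 23 members (34.8%), among them these 4.
Ugt2b5: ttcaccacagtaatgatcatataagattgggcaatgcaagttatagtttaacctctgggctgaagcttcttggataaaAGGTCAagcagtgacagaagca
Ugt2b38: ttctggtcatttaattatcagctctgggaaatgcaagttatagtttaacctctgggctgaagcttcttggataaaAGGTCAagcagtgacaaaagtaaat
Ugt2b36: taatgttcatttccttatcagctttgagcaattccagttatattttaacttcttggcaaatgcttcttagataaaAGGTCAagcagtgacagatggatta
Ugt2b37: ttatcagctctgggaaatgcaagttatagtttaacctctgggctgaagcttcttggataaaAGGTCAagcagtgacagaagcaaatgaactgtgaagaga

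The 150 bases before *Sult3a1* (chr10:33577378-33577527, plus strand) are shown for a member called in both main comparisons, as was *Sult1b1*. The RefSeq start used there lies upstream of the gene start in the NCBIM37 annotation, at 33583741, and the RefSeq starts of *Ugt1a10*, *Ugt1a9* and *Ugt2b37* also differ from the annotated ones, by fewer bases. Capitals mark a match to TTCNNNGAA, the motif bound by STAT5, which 8.47% of the promoters and 2 of 23 members hold. TGACNNNGC, the element bound by NRF2, was matched in 0 of the 23, against 12.5% of all promoters. The HNF1 motif was searched as an exact pattern of 13 letters, which only 2 of the 27025 promoters hold. Its 0 matches in the 23 therefore say nothing about looser HNF1 sites.
Sult3a1: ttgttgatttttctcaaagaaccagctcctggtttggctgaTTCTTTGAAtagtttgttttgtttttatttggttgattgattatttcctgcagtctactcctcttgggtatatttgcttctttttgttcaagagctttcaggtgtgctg

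Each value is on the authors' log2 scale, and groups are given as lowest, median and highest of the 6 livers. They are not corrected for gene length, so no gene is compared with another by level. A gene was called at an adjusted p under 0.1 (limma, Benjamini-Hochberg over all 13268 genes tested), in a fit with a term for the libraries numbered 1 to 3 and 4 to 6, for reasons given with the methods. No read counts were used, so the number of reads behind a value is unknown and its error is the spread between mice. The transform behind the log2 values is not stated, and differences of low genes may be compressed on it. The mean log2 values of the members ran from 2.33 for *Sult3a1*, the lowest inside the limit, and 2.72 for *Ugt1a2*, to 14.1 for *Ugt2b36*. Just outside were *Ugt8a* at 1.80 and *Ugt2a1* at 0.50. The other 11 symbols under the limit were *Sult1c1*, *Sult2a1* to *Sult2a6*, *Sult2b1*, *Sult4a1*, *Sult6b1* and *Ugt2a2*, and 5 of the 13 were listed at 0 in every library. The *Sult2a* genes among them make enzymes for hydroxysteroids and bile acids that are known to be higher in female mouse liver.

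The libraries hold liver RNA, with all 8 hepatocyte markers above the limit. The summed level of these markers (2 to the power of the log2 value) was 2798933 to 3244756 in HFD livers and 2996534 to 3778922 in chow livers, and 4 of the 8 were lower in HFD livers. In HFD+AC261066 livers the sum was 2720452 to 3547572. Of 8 stellate cell markers 3 were higher in HFD than in chow livers (summed level 5836 to 10823 against 4713 to 8333), and 2 were lower in HFD+AC261066 livers (5012 to 6914) than in HFD livers. Of 8 macrophage markers in the table, 2 were higher in HFD than in chow livers (10976 to 14550 against 9465 to 12053). Of 5 gut markers only *Fabp2* reached the limit, and it was higher in HFD than in chow livers (summed level 1677 to 2895 against 815 to 1778). *Cdx2* and *Sis* of gut were listed at 0. Of 5 pancreas markers 1 reached the limit and was not called (summed level 238 to 369 in HFD and 188 to 271 in chow livers). *Prss2* and *Amy2a5* of pancreas were listed at 0, and no marker of adipocytes or kidney tubules reached the limit. In HFD+AC261066 against chow livers 3 hepatocyte markers were lower and 3 macrophage markers higher (summed level 10924 to 18225 against 9465 to 12053), as were 1 marker each of endothelium, lymphocytes and gut. Over all genes tested, 29.2% were called between HFD and chow livers, 2.8% between HFD+AC261066 and HFD livers and 16.7% between HFD+AC261066 and chow livers. Whether these shifts have a part in the differences below was not tested. In whole liver fewer cells of a type and less RNA per cell cannot be told apart.

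In HFD livers compared with chow livers, 12 of the 26 genes changed, 6 higher and 6 lower, where 29.2% of all genes tested were called. Of the 8 sulfotransferase genes 4 were higher in HFD livers and 0 lower (median difference 0.38). Of the 18 glucuronosyltransferase genes 2 were higher and 6 lower (median -0.07). The median difference of all genes tested was 0.01, with 14.2% called higher and 15.0% lower. Whether the 2 classes differ beyond that was not tested, as genes are not replicates. At an unadjusted p under 0.05 (limma), 12 of the 26 genes differed. The share of all genes at that level was not computed, here or below, so such counts show no excess. The HFD and chow livers did not overlap for 6 of the 26 genes, against 9.72% of all genes tested.

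**Figure D1:**
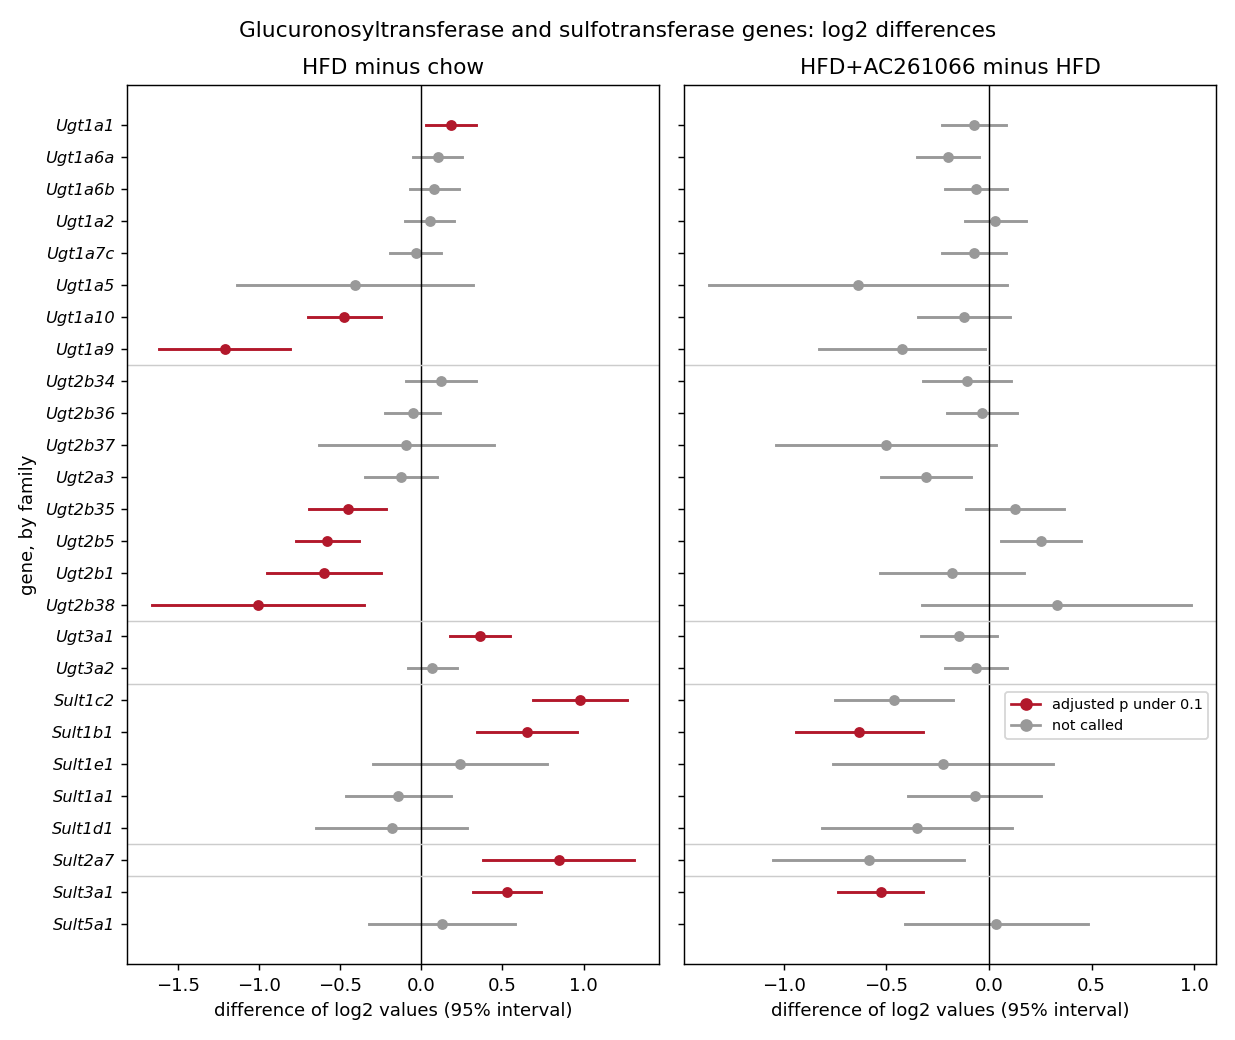
Difference of log2 values with its 95% interval (limma) for each of the 26 genes, HFD minus chow on the left and HFD+AC261066 minus HFD on the right, with genes ordered by family and red marking an adjusted p under 0.1. In the left panel 12 genes are red, from *Ugt1a9* at -1.21 to *Sult1c2* at 0.98, and in the right panel only *Sult1b1* at -0.63 and *Sult3a1* at -0.53 are. Both panels use the same HFD livers.

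*Sult1c2* (chr17:53968962-53985664, minus strand), a phenol sulfotransferase, had the largest rise of the 26 genes. Its log2 values were 7.16, 7.31 and 7.74 (lowest, median and highest) in HFD livers and 6.05, 6.41 and 6.61 in chow livers, a difference of 0.98 ± 0.14 (SE), or 1.97-fold, with an adjusted p of 1.62e-04. Every HFD liver lay above every chow liver.

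*Sult1b1* (chr5:87942364-87967220, minus strand) makes an enzyme that sulfates thyroid hormones and small phenols. The values were 9.52, 9.68 and 10.29 in HFD livers and 8.80, 9.09 and 9.53 in chow livers, 1.57-fold higher (0.65 ± 0.15, adjusted p = 0.00534). Only the highest chow liver reached the range of the HFD livers. *Sult2a7*, whose locus (chr7:15050508-15078290, minus strand) the NCBIM37 annotation lists as a pseudogene of the hydroxysteroid sulfotransferases, had values of 6.20, 6.48 and 6.81 in HFD livers and 5.25, 5.60 and 6.31 in chow livers (0.85 ± 0.22, 1.80-fold, adjusted p = 0.0129). A single chow liver lay within the range of the HFD livers. The rise was 1.25 in libraries 1 to 3 and 0.44 in libraries 4 to 6.

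*Sult3a1* (chr10:33583741-33599322, plus strand) makes an amine sulfotransferase and is known to be higher in female than in male mouse liver. Its values were low, at 2.41, 2.56 and 3.16 in HFD livers and 2.05, 2.15 and 2.29 in chow livers, and the groups did not overlap. The difference was 0.53 ± 0.10, with an adjusted p of 0.0014, and was 0.78 in libraries 1 to 3 and 0.28 in libraries 4 to 6. Of its 51-base windows 6.26% also occur in the related gene *Gm4794*.

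**Figure D2:**
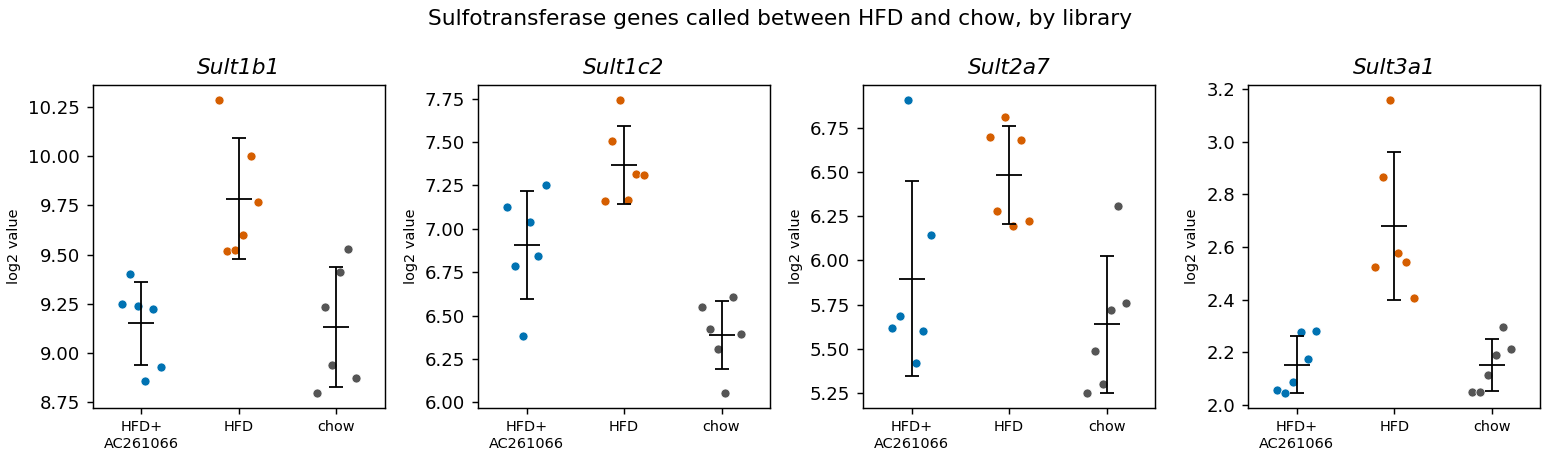
Log2 value of the 4 sulfotransferase genes called between HFD and chow livers, 1 point per library (6 per group), with the mean and SD as black bars. The mean of the HFD livers is the highest in each panel. For *Sult3a1* the HFD+AC261066 livers (2.04 to 2.28) and the chow livers (2.05 to 2.29) cover nearly the same range, close to the limit of 2.

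The other 4 sulfotransferase genes did not pass the test between HFD and chow livers. *Sult1a1*, a general phenol sulfotransferase, had medians of 13.04 in HFD and 13.18 in chow livers, and *Sult1d1*, whose product acts on catecholamines in the mouse, had 12.12 and 12.35. *Sult1e1*, the estrogen sulfotransferase, had 3.93 in HFD and 3.73 in chow livers, and *Sult5a1* had 8.08 and 7.91. For *Sult1e1* the 95% interval of the difference ran from -0.30 to 0.77.

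Among the glucuronosyltransferases, *Ugt1a9* (chr1:89967375-90115572, plus strand), which makes an enzyme for phenols and many drugs, had the largest fall of the 26 genes. Its values were 7.98, 8.49 and 9.09 in HFD livers and 9.27, 9.80 and 10.00 in chow livers, 2.31-fold lower (-1.21 ± 0.19, adjusted p = 4.44e-04). No HFD liver reached the lowest chow liver, and the difference was -1.27 in libraries 1 to 3 and -1.15 in libraries 4 to 6.

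*Ugt1a10* (chr1:89951963-90115579, plus strand), the neighbour of *Ugt1a9* and the gene with the promoter most like it, had values of 3.96, 4.08 and 4.24 in HFD livers and 4.27, 4.51 and 4.87 in chow livers (-0.47 ± 0.11, adjusted p = 0.00517). These groups did not overlap either, but the difference was -0.18 in libraries 1 to 3, where the call was lost, and -0.77 in libraries 4 to 6. *Ugt1a1* (chr1:90108534-90115572, plus strand), which makes the enzyme that conjugates bilirubin, had 12.89, 13.02 and 13.12 in HFD livers and 12.59, 12.84 and 13.08 in chow livers, a difference of 0.18 ± 0.07 (adjusted p = 0.0875). The groups overlapped, and this call was lost in 14 of 30 alternatives, among them the omission of any of 10 single livers.

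The other 5 UGT1A genes did not pass the test between HFD and chow livers. The differences of *Ugt1a2*, *Ugt1a6a*, *Ugt1a6b* and *Ugt1a7c* lay between -0.03 and 0.10, and their 95% intervals all lay within -0.19 to 0.25. The products of *Ugt1a6a* and *Ugt1a6b* act on small phenols, and 92.1% of the 51-base windows of *Ugt1a6b* also occur in *Ugt1a6a*, so their values may not be independent. Of the members placed along the locus, *Ugt1a10* (159.6 kb) and *Ugt1a9* (144.3 kb), both lower in HFD livers, lay farthest from the common exons. *Ugt1a7c*, the next of these members at 120.0 kb, had -0.03 ± 0.07. Whether position has a part was not tested.

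**Figure D3:**
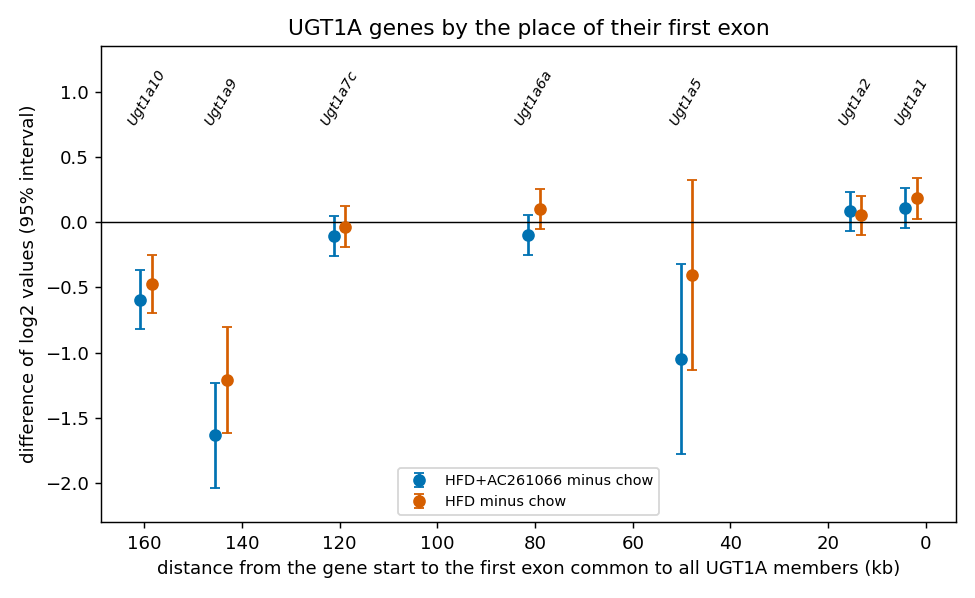
Difference of log2 values with its 95% interval for 7 UGT1A genes (the 8th, *Ugt1a6b*, had no promoter entry), against the distance in kb from each gene's start to the first exon that all share, for HFD+AC261066 minus chow and HFD minus chow. The lowest values are those of *Ugt1a9*, 144.3 kb from that exon, at -1.63 for HFD+AC261066 and -1.21 for HFD, while *Ugt1a7c* at 120.0 kb is close to 0. Both comparisons use the same chow livers.

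In the UGT2 family, whose members conjugate steroids, bile acids and drugs, 4 of 8 genes were lower in HFD livers and 0 higher (median -0.29). Of all genes tested, 15.0% were called lower and 14.2% higher in that comparison. *Ugt2b5* (chr5:87553981-87569365, minus strand) had values of 13.51, 13.59 and 13.71 in HFD livers and 13.90, 14.17 and 14.50 in chow livers (-0.58 ± 0.09, adjusted p = 4.47e-04). *Ugt2b35* (chr5:87429885-87442299, plus strand) had 11.85, 12.11 and 12.24 in HFD livers and 12.26, 12.60 and 12.73 in chow livers (-0.45 ± 0.11, adjusted p = 0.0101). For both genes every HFD liver was below every chow liver.

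*Ugt2b1* (chr5:87345663-87355555, minus strand), whose rat ortholog conjugates bisphenol A, had values of 12.50, 12.79 and 13.01 in HFD livers and 12.76, 13.53 and 13.64 in chow livers, 1.51-fold lower (-0.60 ± 0.17, adjusted p = 0.0182). A single chow liver, replicate 3, lay within the range of the HFD livers. *Ugt2b38* (chr5:87838967-87853228, minus strand), which is known to be higher in male than in female mouse liver, had 4.06, 4.88 and 5.88 in HFD livers and 5.31, 5.58 and 6.78 in chow livers. It was 2.01-fold lower (-1.01 ± 0.31, adjusted p = 0.0299), with an overlap made by HFD replicate 1, the highest HFD liver. The difference was -1.51 in libraries 1 to 3 and -0.50 in libraries 4 to 6.

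*Ugt2b36* and *Ugt2b37*, whose promoters are printed beside that of *Ugt2b5*, did not pass the test. *Ugt2b36* had medians of 14.10 in HFD and 14.20 in chow livers, with a 95% interval of the difference from -0.22 to 0.12. *Ugt2b37* had medians of 5.10 in HFD and 5.11 in chow livers, with an interval of -0.63 to 0.45, which holds the difference of *Ugt2b5* (-0.58) but not that of *Ugt2b38* (-1.01). *Ugt2a3*, whose human ortholog conjugates bile acids, had medians of 13.04 in HFD and 13.15 in chow livers, and *Ugt2b34* had 13.96 and 13.88, neither of which passed the test.

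*Ugt3a1* (chr15:9209584-9244787, plus strand) was higher in HFD livers. In humans the UGT3A enzymes use other sugars than glucuronic acid. The values of *Ugt3a1* were 11.87, 11.99 and 12.20 in HFD livers and 11.45, 11.59 and 11.97 in chow livers (0.36 ± 0.09, adjusted p = 0.00851). One chow liver, replicate 2, lay within the range of the HFD livers. *Ugt3a2*, beside it on chromosome 15, had 13.37 in HFD and 13.28 in chow livers as medians and did not pass the test.

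**Figure D4:**
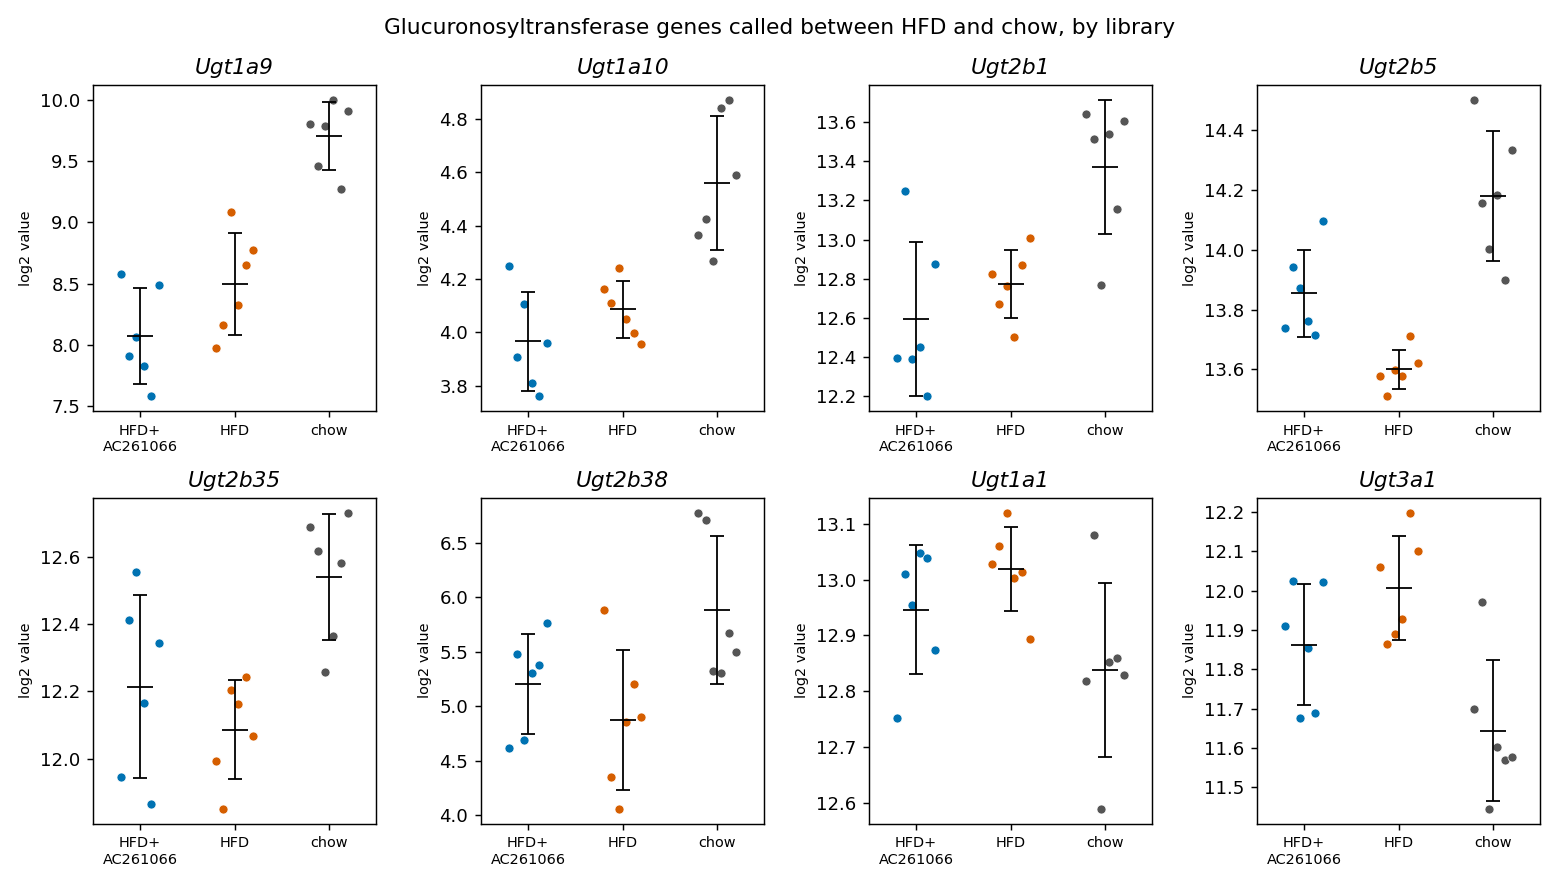
Log2 value of the 8 glucuronosyltransferase genes called between HFD and chow livers, 1 point per library (6 per group), with the mean and SD as black bars. The HFD points lie under all chow points for *Ugt1a9*, *Ugt1a10*, *Ugt2b5* and *Ugt2b35*, and for *Ugt2b5* the HFD+AC261066 points (13.72 to 14.09) lie above all HFD points (13.51 to 13.71).

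All 12 differences had the same sign in the libraries numbered 1 to 3 and in those numbered 4 to 6. The 12 were called on these same libraries, which favours such agreement, so it is no separate support. Of all 26 genes, 19 had the same sign in both sets. In libraries 1 to 3 alone 6 of the 26 genes were called, where 6.95% of all genes tested were, and in libraries 4 to 6 alone 11, where 23.1% were. Chow replicate 3 had the lowest value of its group for 14 of the 26 genes (53.8%), against 24.9% of all genes tested. Without it 11 genes were called in HFD against chow, the lost one being *Ugt1a1*.

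In HFD+AC261066 livers compared with HFD livers, 2 of the 26 genes changed, both lower and both sulfotransferases, where 2.8% of all genes tested were called, 1.27% higher and 1.54% lower. These were *Sult1b1* and *Sult3a1*, which were also higher in HFD than in chow livers. Both comparisons share the HFD livers, so an unusual value in those livers would move both. At an unadjusted p under 0.05 (limma), 8 of the 26 genes differed, a count without its share over all genes. The groups did not overlap for 4 genes, against 1.74% of all genes tested.

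*Sult3a1* had values of 2.04, 2.13 and 2.28 in HFD+AC261066 livers and 2.41, 2.56 and 3.16 in HFD livers, a difference of -0.53 ± 0.10 (adjusted p = 0.0154). The groups did not overlap, and the HFD+AC261066 livers covered nearly the same range as chow livers, with a difference of 0.00 ± 0.10 from them. The fall was -0.79 in libraries 1 to 3 and -0.27 in libraries 4 to 6. *Sult1b1* had 8.86, 9.23 and 9.40 in HFD+AC261066 livers and 9.52, 9.68 and 10.29 in HFD livers, 1.55-fold lower (-0.63 ± 0.15, adjusted p = 0.041), also without overlap. Without HFD+AC261066 replicate 4 its adjusted p was 0.111.

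The other 2 genes without overlap did not pass the test over all genes. *Ugt1a6a* had values of 9.56, 9.66 and 9.78 in HFD+AC261066 livers and 9.79, 9.87 and 9.92 in HFD livers (-0.20 ± 0.07, adjusted p = 0.183). *Ugt2b5* had 13.72, 13.82 and 14.09 in HFD+AC261066 livers and 13.51, 13.59 and 13.71 in HFD livers (0.25 ± 0.09, adjusted p = 0.184).

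The difference was below 0 for 7 of the 8 sulfotransferase genes (median -0.41) and for 14 of the 18 glucuronosyltransferase genes, most of which did not pass the test, while the median of all genes tested was under 0.01 in size. *Sult1c2* had values of 6.38, 6.94 and 7.25 in HFD+AC261066 livers and 7.16, 7.31 and 7.74 in HFD livers (-0.46 ± 0.14, adjusted p = 0.107). *Sult2a7* had 5.42, 5.65 and 6.91 in HFD+AC261066 livers and 6.20, 6.48 and 6.81 in HFD livers (-0.59 ± 0.22, adjusted p = 0.208). In both genes the groups overlapped, in *Sult2a7* through HFD+AC261066 replicate 3 alone.

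HFD+AC261066 replicate 3 was the highest of its group for *Sult1a1*, *Sult1d1*, *Sult1e1* and *Sult2a7*, and for 7 of the 26 genes in all (26.9%, against 21.6% of all genes tested). Replicate 6 of that group was the highest for 8 genes (30.8%, against 15.8%). Without it, 4 sulfotransferase genes fell in HFD+AC261066 livers against HFD livers and no glucuronosyltransferase was called: *Sult1d1* at -0.61 (adjusted p = 0.0417) and *Sult2a7* at -0.80 (adjusted p = 0.034) were added, where 2.28% of all genes tested were called. With replicate 3 included, *Sult1d1* had values of 11.16, 11.73 and 12.98 in HFD+AC261066 livers and 11.96, 12.12 and 12.35 in HFD livers (-0.35 ± 0.22, adjusted p = 0.474).

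Of the 18 glucuronosyltransferase genes 0 were called between HFD+AC261066 and HFD livers (limma), where 2.8% of all genes tested were. At an unadjusted p under 0.05 (limma) 4 of the 18 differed, and their median difference was -0.09 over all 18. Of the genes lower in HFD than in chow livers, *Ugt1a9* had a difference of -0.42 ± 0.19 (adjusted p = 0.297), and *Ugt2b38* had a difference of 0.33 ± 0.31. *Ugt2a3* had values of 12.38, 12.71 and 12.97 in HFD+AC261066 livers and 12.88, 13.04 and 13.09 in HFD livers (-0.31 ± 0.10, adjusted p = 0.155). The 95% intervals of *Ugt1a1*, *Ugt1a2*, *Ugt1a6b*, *Ugt1a7c*, *Ugt2b36* and *Ugt3a2* all lay between -0.23 and 0.18.

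In HFD+AC261066 livers compared with chow livers, 8 of the 26 genes changed, 1 higher and 7 lower, where 16.7% of all genes tested were called, 8.22% higher and 8.45% lower. The gene that was higher was *Sult1c2* (0.52 ± 0.14, adjusted p = 0.0267), and all 7 that were lower are glucuronosyltransferases. *Ugt1a9* had values of 7.58, 7.98 and 8.58 in HFD+AC261066 livers and 9.27, 9.80 and 10.00 in chow livers, 3.10-fold lower (-1.63 ± 0.19, adjusted p = 1.69e-04). *Ugt1a9* and *Ugt1a10* were the 2 genes whose groups did not overlap, against 3.69% of all genes tested.

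The other genes lower in HFD+AC261066 than in chow livers were *Ugt2b1* at -0.78 ± 0.17, *Ugt1a10* at -0.59 ± 0.11, *Ugt2a3* at -0.43 ± 0.10, *Ugt2b35* at -0.33 ± 0.11, *Ugt2b5* at -0.33 ± 0.09 and *Ugt1a5* at -1.05 ± 0.35. Their adjusted p ran from 0.00427 to 0.0757. *Sult1b1* had a difference of 0.02 ± 0.15 from chow livers, with a 95% interval from -0.29 to 0.33. Without HFD+AC261066 replicate 3 the count was 11 of 26, where 21.2% of all genes tested were called.

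*Ugt1a5* (chr1:90062587-90115572, plus strand) had the widest spread within groups of the 26 genes, with an SD of 0.67 on the log2 scale, against a median of 0.14 over all genes tested. Its values were 6.46, 6.70 and 8.12 in HFD+AC261066 livers, 6.81, 7.62 and 8.23 in HFD livers and 7.16, 7.95 and 8.79 in chow livers. In replicates 1 to 3 the HFD livers (7.80 to 8.23) lay above the chow livers (7.16 to 7.28), and in replicates 4 to 6 the HFD livers (6.81 to 7.44) lay below the chow livers (8.62 to 8.79). Since the levelled values have the same mean in both sets, these data do not show which group moved between the sets, only that the difference between groups changed. HFD minus chow was 0.76 in libraries 1 to 3 and -1.58 in libraries 4 to 6, and this change of -2.34 passed the test (limma interaction, adjusted p = 0.0433). For HFD+AC261066 minus chow the differences were -0.02 and -2.07 (adjusted p of the change = 0.0203).

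*Ugt1a10* also differed between the sets in HFD+AC261066 minus chow, with -0.26 in libraries 1 to 3 and -0.92 in libraries 4 to 6 (adjusted p of the change = 0.0324). Such a change was called for 4.27% of all genes tested in that comparison and for 0.0603% in HFD minus chow. *Ugt1a9* did not show one, with -1.50 and -1.77 for HFD+AC261066 minus chow. What the numbers of the 2 sets stand for is not labelled, so their part in these values was not tested.

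**Figure D5:**
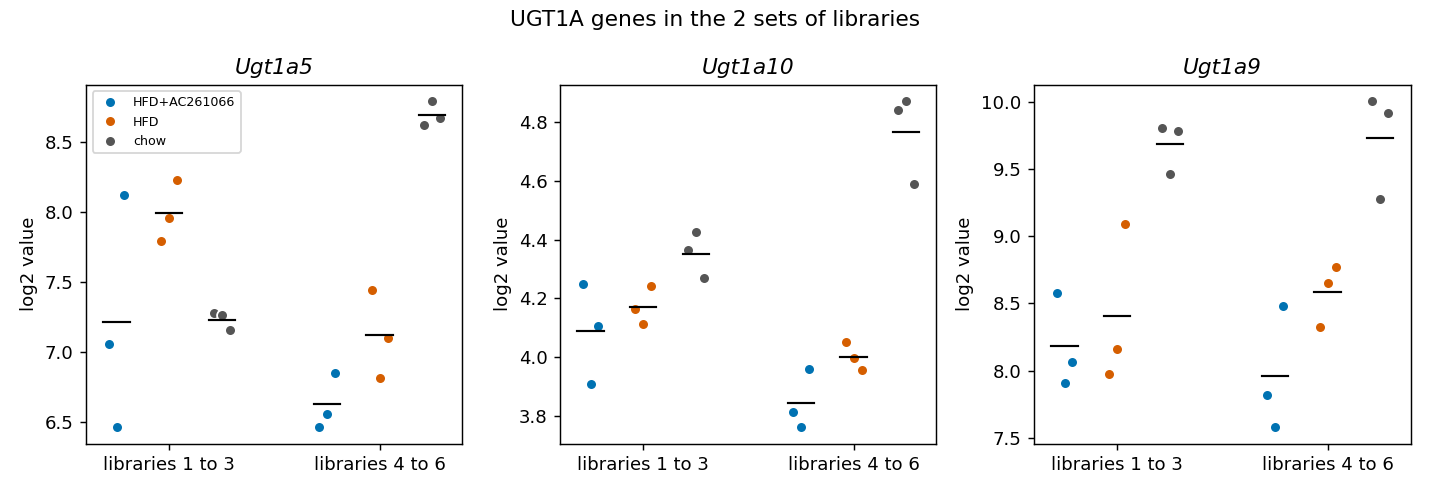
Log2 value of *Ugt1a5*, *Ugt1a10* and *Ugt1a9* in each library, by set (replicates 1 to 3 and 4 to 6) and group, with lines at the mean of 3 libraries. For *Ugt1a5* the HFD livers lie above the chow livers in the first set and below them in the second, while for *Ugt1a9* the chow livers lie above the other groups in both sets. The authors' levelling gives both sets the same mean, so groups can be compared within a set but not levels between the sets.

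The spread within groups varied widely between the genes. The pooled SD was highest for *Ugt1a5* (0.67), *Ugt2b38* (0.60), *Sult1e1* (0.49) and *Ugt2b37* (0.49) and lowest for *Ugt3a2* (0.11), with a median of 0.20 over the 26 genes. The precision of a difference followed it, from an SE of 0.35 for *Ugt1a5* to 0.07 for *Ugt3a2*.

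Of 8 genes listed for the supply of UDP-glucuronic acid, not all specific to it, 1 was higher and 1 lower in HFD against chow livers. They were *Slc35b4*, a transporter of UDP-sugars, at 0.21 ± 0.06, and *Ugdh*, which oxidises UDP-glucose to UDP-glucuronic acid, at -0.38 ± 0.13. Over all genes tested, 29.2% were called in that comparison, 2.8% between HFD+AC261066 and HFD livers and 16.7% between HFD+AC261066 and chow livers. *Ugp2*, which makes UDP-glucose, was the 1 gene called between HFD+AC261066 and HFD livers, at -0.41 ± 0.10 (adjusted p = 0.0545). Between HFD+AC261066 and chow livers 3 of the 8 were called, *Ugp2* at -0.45 ± 0.10, *Ugdh* at -0.40 ± 0.13 and *Slc35b4* at 0.22 ± 0.06. At an unadjusted p under 0.05 (limma) 7 of the 8 differed, a count without its share over all genes. Of 8 genes for the supply of PAPS and the removal of its product, 1 was higher in HFD than in chow livers, the sulfate transporter *Slc26a2* (0.30 ± 0.08), and 0 were called between HFD+AC261066 and HFD livers (limma), also 0 at an unadjusted p under 0.05.

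Of 6 measured genes listed for the removal of conjugates, not all specific to it, *Arsb*, a lysosomal sulfatase, was higher in HFD than in chow livers (0.35 ± 0.09). *Gusb*, β-glucuronidase, was lower (-0.27 ± 0.07). Another 5 genes were listed for the export of conjugates, not all specific to it. Of these, *Abcc6* (0.34 ± 0.07) and *Abcg2* (0.36 ± 0.11) were higher in HFD than in chow livers and *Abcc4* was lower (-0.39 ± 0.12). In HFD+AC261066 livers *Abcc6* fell against HFD livers (-0.31 ± 0.07, limma, adjusted p = 0.0402). Over all genes tested, 29.2% were called between HFD and chow livers and 2.8% between HFD+AC261066 and HFD livers.

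Of 21 nuclear receptors and factors known to act on these enzymes, 4 rose and 3 fell in HFD livers against chow livers. Of all genes tested, 14.2% were called higher and 15.0% lower there. The 3 with the smallest p were *Hnf4a*, a hepatocyte factor, at -0.55 ± 0.13, *Cux2*, a repressor known to be higher in female liver, at -1.66 ± 0.40, and *Nfe2l2*, which encodes NRF2, at 0.28 ± 0.07. Between HFD+AC261066 and HFD livers 0 of the 21 were called (limma), where 2.8% of all genes tested were. Of the 21, 1 had an unadjusted p under 0.05 (limma).

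Because *Sult3a1* and *Ugt2b38* are known for a bias by sex, lists of such genes were examined in these male livers. Of 12 female-biased genes listed, 8 reached the limit, *Sult3a1* among them, while *Cyp3a41a*, *Cyp3a41b*, *A1bg* and *Sult2a1* had a mean under it. Of the 8, 5 rose in HFD livers against chow livers and 2 fell, *Cux2* and *Cyp3a44* (median 0.90). In HFD+AC261066 livers against HFD livers 4 fell and 0 rose (median -0.92). Over all genes tested, 29.2% were called in the first of these comparisons and 2.8% in the second. The 3 with the smallest p in HFD against chow were *Cyp2b9* (5.48 ± 0.48), *Hao2* (2.25 ± 0.26) and *Cyp2b13* (3.46 ± 0.52). Of 11 male-biased genes, *Ugt2b38* among them, 7 fell and 0 rose in HFD livers against chow livers (median -0.93), with *Cyp4a12b* at -2.47 ± 0.35. In HFD+AC261066 livers against HFD livers their median difference was 0.70. Only 1 of them was called there, *Cyp4a12b*, higher by 1.48 ± 0.35 (limma, adjusted p = 0.0418).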

How the data were processed

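Per the study's methods, liver RNA of 18 mice was sequenced as paired reads of 51 bases. The study's methods name the TruSeq RNA protocol for the libraries. The sample labels give the tissue as liver but carry a culture protocol for neural stem cells, a DNA library kit and another sequencer. The 2 accounts of the library preparation therefore conflict. The deposited values are log2 values per gene and library, made by the authors with TopHat2 2.0.11 (mm9), HTSeq 0.6.1, DESeq2 1.6.3 and removeBatchEffect of limma 3.22.7. Also named in the submitters' notes are cutadapt and bcl2fastq 2.17. The transform is not given in the sources used here. The study's methods give an approximate number of reads per sample, but no counts were used. The reads behind each value are therefore unknown, and the spread between mice sets the precision. The number of columns of other samples was 0.

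Of 20512 genes, 3620 were at 0 throughout, and the 13268 whose log2 values averaged 2 or more entered limma 3.58.1 (R 4.3.3, variance trend, 14 residual and 4.88 prior degrees of freedom). For every gene the mean of the libraries numbered 1 to 3 equals that of the libraries numbered 4 to 6 to within 1e-12, so these sets were taken as those levelled by the authors, and a term for them was kept, since the levelling uses 1 degree of freedom. Whether a difference changed between the sets was tested as an interaction. Groups follow the sample labels.

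The genes, lists and tests were chosen with earlier results of these data known. Every gene of the 2 families is named, with full values for those called in HFD against chow or HFD+AC261066 against HFD, and up to 3 genes with the smallest p in each other list. Positions come from an annotation of NCBIM37. Sequences are RefSeq's, from GRCm38.p6, kept where they match NCBIM37 at 1 place. Protein sequences were not used here. Python 3.11.15 with pandas 2.3.3 and matplotlib 3.10.9 was used. Alternatives were no term for the sets, each set alone, the replicate number as a block, minima of 1, 5 or none, quantile normalization, equal medians, no trend, a threshold of 0.05, each library left out and a fit on 2 groups at a time.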

Additional observations from a re-analysis of the deposited data

Results flagged for a closer look

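Of 78 gene and group combinations, 3 held a library whose gap to its nearest neighbour was over 0.625 of the range of the 6 livers, where chance gives about 1 in 20. HFD replicate 2 was the highest HFD liver for *Ugt1a2* at 2.91, with the next at 2.72. HFD+AC261066 replicate 3 was the highest of its group for *Ugt1a5* at 8.12, with the next at 7.06. HFD replicate 4 was the lowest HFD liver for *Ugt2b34* at 13.68, with the next at 13.93.

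For *Ugt1a5* the difference of HFD from chow livers was lower by 2.34 on the log2 scale in libraries 4 to 6 than in libraries 1 to 3 (a change of -2.34, limma interaction). The difference of HFD+AC261066 from chow livers changed by -2.06 for the same gene and by -0.66 for *Ugt1a10*. Which group moved between the sets cannot be read from these values, as the authors' levelling makes the set means equal.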

How the results depend on the processing

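No call reversed under any alternative. In libraries 1 to 3 alone, 6 of the 26 genes were called in HFD against chow (12 in all 18 libraries), 1 in HFD+AC261066 against HFD (2 in all) and 1 in HFD+AC261066 against chow (8 in all); that set has 3 livers a group. A minimum of 5, which leaves out *Sult3a1*, gave 1 in HFD+AC261066 against HFD. With one library left out, the counts were 11 to 12, 1 to 4 and 6 to 11 in the same order. The 1 came without HFD+AC261066 replicate 4, and the 4 and 11 without HFD+AC261066 replicate 3. The replicate numbers did not pair the livers (correlations of same-numbered deviations from -0.36 to 0.15), and with the replicate number as a block the counts were 12, 2 and 7, *Ugt2b35* being lost from HFD+AC261066 against chow (adjusted p = 0.111).

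*Sult1b1*, *Sult1c2*, *Sult3a1*, *Ugt1a9* and *Ugt2b5* kept their HFD against chow call in every alternative that tested them, and *Sult3a1* kept that of HFD+AC261066 against HFD. *Ugt1a1* lost its call in 14 of 30 alternatives, and in HFD+AC261066 against chow *Ugt2b35* lost it in 12 and *Ugt1a5* in 8. Over all genes, the calls of HFD+AC261066 against HFD were 372, and 581 without the term for the sets, 23 in libraries 1 to 3 alone, 620 in libraries 4 to 6 alone, 172 at a threshold of 0.05 and 125 to 683 with one library left out. In libraries 1 to 3 alone 922 genes were called in HFD against chow (3880 in all) and 123 in HFD+AC261066 against chow (2212 in all, 1239 at a threshold of 0.05 and 1387 to 2811 with one library left out).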
